A study of Drosophila melanogaster with 27 samples.

Results

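Futsch, chic and Rac1 are mRNAs long described as targets of Fmr1 in the fly, and their rows were taken by FlyBase symbol from a table of 17807 genes, 3 of which they make up. All 3 passed the filter on low counts that left 11469 genes for testing. The libraries came from pupal heads, 200 per genotype, of the stock w1118, labelled wild type, and of flies labelled Ythdf#0/#0 from the stock named CG6422. Per the labels' protocols the lysate was divided for an input sample, a pull-down with the antibodies 5B6 and 5A11 against Fmr1 and a pull-down with mouse IgG. The 3 kinds of library existed for each genotype, 5 times in the wild type and 4 times in the mutant. The series asked whether Ythdf, a protein that binds m6A-marked RNA in the cytoplasm, alters which mRNAs Fmr1 binds. All groups carried the endogenous Fmr1 gene, and the labels do not describe the Ythdf lesion or the background it was crossed into.

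Fmr1 is the fly relative of FMRP, whose loss causes fragile X syndrome in humans. It binds mRNAs in neurons and is best known for holding back their translation. Futsch protein, the fly counterpart of MAP1B, binds microtubules in axons and at synapses, and overgrowth of the larval neuromuscular junction in Fmr1 mutants has been tied to excess Futsch. The gene chic encodes profilin, which binds actin monomers and feeds them into growing filaments. Rac1 encodes a small GTPase that switches on actin branching in axons and dendrites. Fmr1 has been described as binding both of these mRNAs and restraining their expression during dendrite and axon growth. A pull-down measures association of mRNA with the protein in a lysate, not translation.

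The genes differ most in size. In the Ensembl annotation of BDGP6.54, futsch lies on the plus strand of chromosome X at 1409069 to 1453686, with 3 transcripts and a longest coding sequence of 16485 bp, the 12th longest of 13986 coding genes. Its exons share 1186 bp, 5.088% of their length, with Gr2a on the same strand, so reads from that stretch cannot be given to 1 of the genes. The gene chic lies on the minus strand of 2L at 5972115 to 5981018, with 6 transcripts and a coding sequence of 378 bp. Rac1 lies on the minus strand of 3L at 1300879 to 1302683, as a single exon of 1805 bp with a coding sequence of 576 bp. No other gene's exons overlap those of chic or Rac1. Rac2 encodes a close relative of the Rac1 protein. Where their coding sequences are alike, counting could split or discard reads between them. Their sequences were not compared here, so the Rac1 values are uncertain to an unknown extent.

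Counts in genes ran from 5623123 to 15459370 in inputs and from 10726339 to 54195136 in Fmr1 libraries, but only from 196933 to 5879253 in IgG libraries. All 8 neuron markers had counts in every library, as did markers of glia, photoreceptors, muscle, fat body and hemocytes, so RNA of tissues outside the brain named in the labels was present. Ythdf mRNA stood at 61.8 ± 5.18 CPM (TMM-scaled counts per 1000000, SD, n = 5) in wild-type inputs and 33.2 ± 3.26 CPM (n = 4) in mutant inputs, without overlap. Replicate 2 of the wild-type IgG libraries stands apart for Rac1, and results that rest on it are given with and without it.

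In the inputs, futsch and chic were among the abundant mRNAs, and Rac1 was lower but still above 75.8% of tested genes. By mean level over the 9 inputs, futsch ranked 91st, chic 168th and Rac1 2780th of 11469. Futsch in wild-type inputs had 1620, 1400, 1280, 1260 and 1050 CPM in replicates 1, 2, 3, 5 and 7. In mutant inputs it had 1170, 1210, 1030 and 727 CPM in replicates 1, 2, 3 and 7, 2 of which lay below the lowest wild-type library. The chic mRNA had 1120, 771, 682, 769 and 743 CPM in the wild type. In the mutant it had 593, 601, 607 and 685 CPM, and 3 of these lay below the lowest wild-type library. Replicate 1 of the wild type stood well above the other chic values. Rac1 had 78.8, 58.7, 61.4, 54.4 and 52.4 CPM in the wild type and 65.4, 66.1, 66.8 and 61.7 CPM in the mutant, inside the wild-type range. Divided by exon length, the mean wild-type input level was 56.7 CPM per kb for futsch, 311 for chic and 33.9 for Rac1, so chic led on that scale.

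No input level passed the test between genotypes. The log2 difference of mutant over wild type was −0.35 ± 0.26 (SE, adjusted p = 0.511) for futsch, −0.40 ± 0.21 (adjusted p = 0.304) for chic and 0.09 ± 0.17 (adjusted p = 0.833) for Rac1. None of the 3 mRNAs was called, where 5.68% of all tested genes were (3.33% higher and 2.35% lower). The 95% intervals of the log2 difference ran from −0.89 to 0.19, from −0.82 to 0.03 and from −0.26 to 0.44. Without wild-type replicate 1, chic had −0.26 (adjusted p = 0.625). The summed level of the 8 neuron markers was 5560 to 8160 CPM in wild-type and 4300 to 5160 CPM in mutant inputs, photoreceptor markers had 12200 to 15600 and 10700 to 11900 CPM, and fat body markers 96.4 to 173 and 198 to 250 CPM. These 3 sums did not overlap between the genotypes, while those of glia, muscle and hemocyte markers did, and their part in the values of futsch, chic and Rac1 was not tested. In such bulk samples fewer neurons and less RNA per neuron cannot be told apart.

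**Figure D1:**
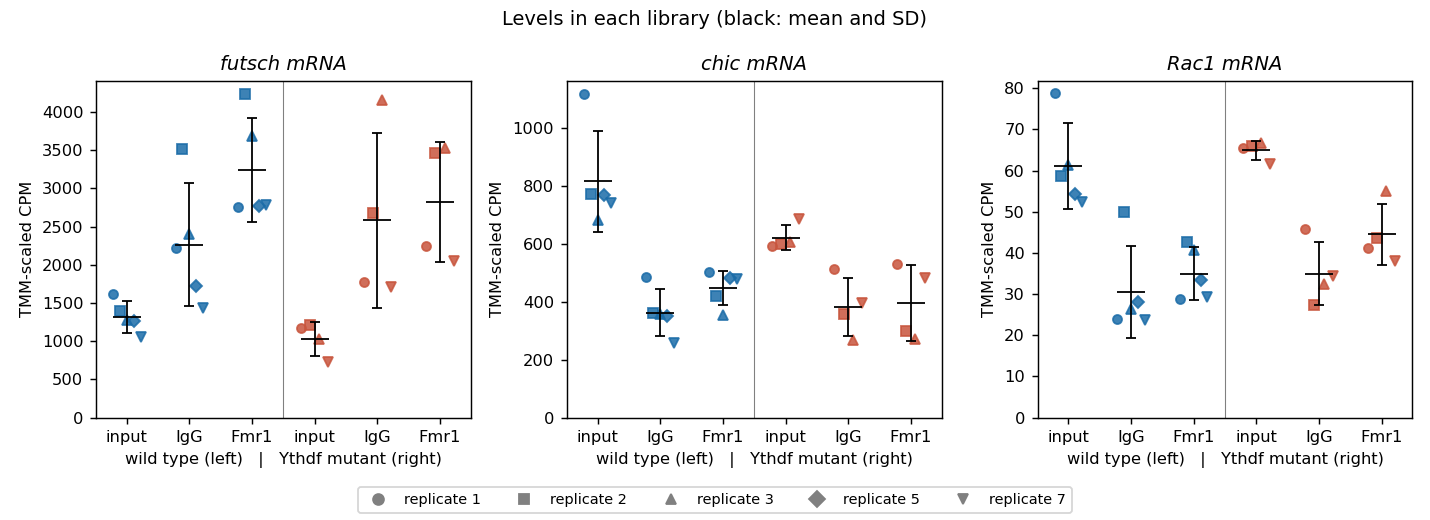
TMM-scaled CPM (vertical axis, linear from 0) of futsch, chic and Rac1 in each library of the 6 groups, wild type left and mutant right; symbols mark the replicate and black bars the mean and SD. For futsch every Fmr1 library and 4 of 5 wild-type IgG libraries lie above the highest input of their genotype, for chic and Rac1 the pull-downs lie below the inputs, and Fmr1 and IgG values overlap in every panel.

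Without a term for the replicate number, none of the 3 mRNAs was called higher in Fmr1 than in IgG libraries of the wild type, where 16.4% of all tested genes were called higher, 17% lower and 33.4% in all. Futsch had 2750, 4230, 3690, 2770 and 2780 CPM in the Fmr1 libraries of replicates 1, 2, 3, 5 and 7. In the IgG libraries it had 2220, 3520, 2400, 1720 and 1430 CPM. The groups overlapped, and 2 of 5 Fmr1 libraries lay above the highest IgG library. The log2 fold change was 0.53 ± 0.25 (95% interval 0.02 to 1.03, adjusted p = 0.106), a 1.44-fold difference. Each Fmr1 library was above the IgG library of its own number, by 0.27 to 0.96 on the log2 scale. The labels do not say that a number marks 1 lysate, and deviations of same-numbered Fmr1 and IgG libraries did not all correlate. With the number as a block futsch was called (0.57, adjusted p = 0.0134) and chic and Rac1 were not. That fit called 4144 of all tested genes, 2119 higher and 2025 lower, against 3835 without the block, so the call alone does not set futsch apart.

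The chic mRNA had 503, 421, 356, 482 and 479 CPM in the wild-type Fmr1 libraries and 485, 363, 359, 351 and 258 CPM in the IgG libraries. Only 1 Fmr1 library lay above the highest IgG library. The log2 fold change was 0.32 ± 0.20 (95% interval −0.09 to 0.73, adjusted p = 0.225). Rac1 had 28.8, 42.7, 40.8, 33.5 and 29.3 CPM in the Fmr1 libraries against 24.0, 50.0, 26.4, 28.2 and 23.8 CPM in the IgG libraries. The IgG values rest on 5, 20, 41, 26 and 147 reads, and the count of 5 has an exact Poisson 95% interval of 1.62 to 11.7 reads, covering counting error only. No Fmr1 library lay above the highest IgG library for Rac1. The log2 fold change was 0.27 ± 0.19 (95% interval −0.12 to 0.66, adjusted p = 0.289).

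The futsch and Rac1 values depended on IgG replicate 2. Without it, futsch had 0.74 (adjusted p = 0.0230) and Rac1 0.45 (adjusted p = 0.0494), the highest of 10 fits that each left out 1 library. In the other 9 fits neither passed, with values down to 0.38 for futsch (adjusted p up to 0.33) and 0.15 for Rac1 (up to 0.629). The chic value ranged from 0.21 to 0.44 when any 1 library was left out and never passed. With RLE in place of TMM scaling the median of all genes moved by −0.22 in this comparison, futsch to 0.31, chic to 0.12 and Rac1 to 0.05, and the split of called genes went from 1881 higher and 1954 lower to 982 and 2563. Summed neuron markers were 9870 to 15000 CPM in the wild-type Fmr1 libraries and 5720 to 11300 CPM in the IgG libraries, and fat body markers 45.9 to 291 and 1100 to 3300 CPM. Photoreceptor markers had 13000 to 22400 and 6850 to 13600 CPM, and muscle markers 33600 to 63300 and 15800 to 47500 CPM. Glia markers had 2210 to 3580 and 1390 to 3080 CPM, and hemocyte markers 525 to 825 and 491 to 813 CPM. Their part in the values of futsch, chic and Rac1 was not tested.

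In the mutant, none of the 3 mRNAs was called in Fmr1 over IgG libraries, where 20.4% of tested genes were called, 10.8% higher and 9.61% lower. Futsch had 2240, 3460, 3530 and 2050 CPM in the Fmr1 libraries of replicates 1, 2, 3 and 7, and 1770, 2680, 4160 and 1710 CPM in the IgG libraries. The highest value of all was that of an IgG library, and futsch had a log2 fold change of 0.13 ± 0.28 (95% interval −0.44 to 0.69, adjusted p = 0.812). The chic mRNA had 531, 300, 270 and 481 CPM against 512, 357, 269 and 396 CPM, pairs that lay close together, with a log2 fold change of 0.06 ± 0.22 (adjusted p = 0.913). With RLE scaling both turned slightly negative, to −0.05 for futsch and −0.10 for chic. Rac1 had 41.2, 43.6, 55.1 and 38.1 CPM against 45.7, 27.4, 32.5 and 34.3 CPM, the latter from 14, 17, 42 and 120 reads. It had a log2 fold change of 0.39 ± 0.20 (95% interval −0.03 to 0.80, adjusted p = 0.188), and 1 of 4 Fmr1 libraries lay above the highest IgG library. In replicates 2 and 3 alone Rac1 passed (0.69, adjusted p = 0.0342), and in replicates 1 and 7 alone it had 0.00 (adjusted p = 1). Calls over all genes shifted as well, from 2341 in the main fit (1239 higher) to 3089 in replicates 2 and 3 (1904 higher). Replicates 1 and 7 called 324 (45 higher).

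No difference in Fmr1 over IgG between genotypes passed the test. The mutant value minus the wild-type value was −0.40 ± 0.37 (95% interval −1.16 to 0.36) for futsch, −0.26 ± 0.30 (−0.87 to 0.34) for chic and 0.12 ± 0.28 (−0.45 to 0.69) for Rac1, on the log2 scale, each with adjusted p = 1. By edgeR 0% of tested genes were called for this difference, and DESeq2 called 4. An unadjusted edgeR p under 0.05 was found for 504 genes, 4.39% of those tested, a share no higher than that threshold gives by chance. The intervals still hold changes of about the size of the wild-type values themselves.

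**Figure D2:**
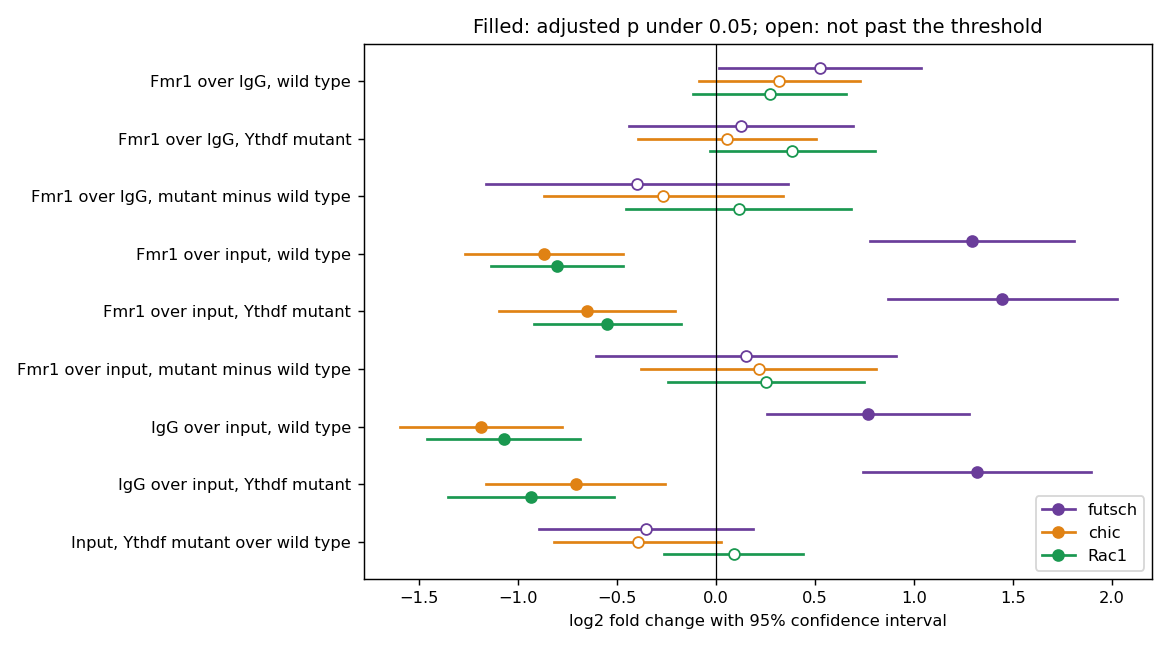
Log2 fold change (horizontal axis) with its 95% interval for futsch, chic and Rac1 in each of 9 comparisons of the edgeR fit, filled where the adjusted p is under 0.05. The Fmr1-over-input values are positive for futsch and negative for chic and Rac1 in both genotypes, and every interval of the genotype differences includes 0.

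Against input, all 3 mRNAs were called in the wild type, futsch upward and both short mRNAs downward. Among all tested genes 48.8% were called in this comparison, 23.2% higher and 25.6% lower, so a call alone sets none of them apart. Futsch rose by a log2 fold change of 1.30 ± 0.25 (2.46-fold, adjusted p = 0.000109). The chic mRNA fell by 0.87 ± 0.20 (to 0.548 of the input level, adjusted p = 0.00055), and Rac1 fell by 0.80 ± 0.16 (to 0.573, adjusted p = 0.000181). The Fmr1 and input values of each mRNA did not overlap. How many of all tested genes also lacked overlap in the comparisons with input was not counted. A lack of overlap alone therefore sets none of the 3 mRNAs apart, here or below. By replicate 1, 2, 3, 5 and 7 the log2 ratio of same-numbered libraries was 0.76, 1.59, 1.53, 1.14 and 1.41 for futsch. It was −1.16, −0.87, −0.94, −0.67 and −0.63 for chic, and −1.45, −0.46, −0.59, −0.70 and −0.84 for Rac1.

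The mutant gave the same directions. Of all tested genes 46.5% were called, 21.7% higher and 24.8% lower. Futsch rose by 1.45 ± 0.28 (2.73-fold, adjusted p = 0.000149), while chic (−0.65 ± 0.22, adjusted p = 0.0154) and Rac1 (−0.55 ± 0.18, adjusted p = 0.0142) fell, again without overlap between Fmr1 and input libraries. The chic call was lost without mutant input 1 (−0.58, adjusted p = 0.0508) or 7 (−0.51, 0.0835) or Fmr1 library 3 (−0.50, 0.0807), and in replicates 1 and 7 alone (−0.41, 0.319). The Rac1 call was lost without mutant input 1 (adjusted p = 0.0825) or 7 (0.0612) or Fmr1 library 7 (0.0554), and with no filter (−0.48, 0.0524). The difference between genotypes was 0.15 ± 0.37 (95% interval −0.61 to 0.91) for futsch, 0.22 ± 0.29 (−0.38 to 0.81) for chic and 0.25 ± 0.24 (−0.24 to 0.75) for Rac1, each with adjusted p = 1. In that comparison 0.00872% of tested genes were called, 1 gene, or 3 with the replicate number as a block.

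**Figure D3:**
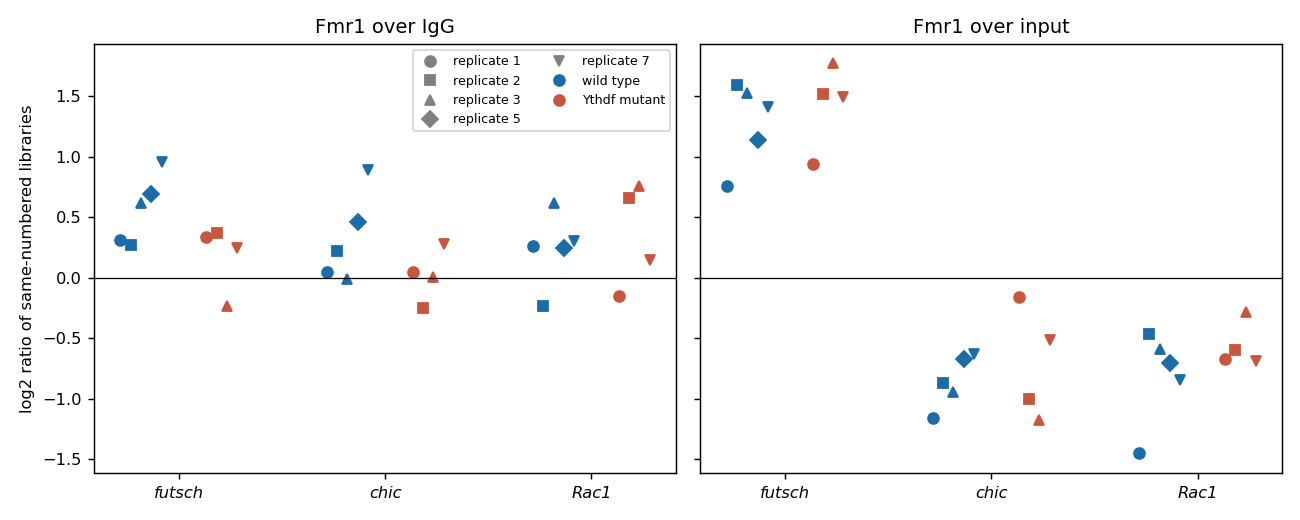
Log2 ratio of same-numbered libraries (vertical axis) for Fmr1 over IgG, left, and Fmr1 over input, right, each point 1 pair, with the replicate as symbol and the genotype as colour. Futsch is above 0 and chic and Rac1 below 0 in every pair of Fmr1 and input, whereas the ratios of Fmr1 to IgG lie between −0.25 and 0.96.

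The IgG pull-down departed from the input in the same directions. In the wild type futsch was higher in IgG than in input by 0.77 ± 0.25 (1.71-fold, adjusted p = 0.0203), with 4 of 5 IgG libraries above the highest input. The chic mRNA fell by 1.19 ± 0.20 (adjusted p = 7.97e-05) and Rac1 fell by 1.07 ± 0.19 (adjusted p = 0.00013), both without overlap. Across all genes 29.3% were called, 14.7% higher and 14.6% lower. The futsch call was lost without wild-type input 7 (0.70, adjusted p = 0.0564) or IgG library 2 (0.55, 0.0914), and in replicates 1, 5 and 7 alone (0.50, 0.132). In the mutant futsch rose by 1.32 ± 0.28 (2.5-fold, adjusted p = 0.00311), chic fell by 0.71 ± 0.22 (adjusted p = 0.0364) and Rac1 fell by 0.93 ± 0.20 (adjusted p = 0.00377). Of all genes 11.2% were called there, 5.46% higher and 5.77% lower. The mutant chic call was lost when any 1 of 7 libraries was left out, namely inputs 1, 2, 3 and 7 and IgG libraries 2, 3 and 7. In replicates 1 and 7 alone futsch (0.88, adjusted p = 0.196), chic (−0.51, 0.437) and Rac1 (−0.76, 0.221) all missed the threshold. Fmr1-over-input and IgG-over-input values share the input libraries, so their likeness is in part that of a common denominator.

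Coding length went with these values over all coding genes. Over 10432 coding genes Spearman's rank correlation between the wild-type log2 fold change and coding length was 0.707 for Fmr1 over input, 0.483 for IgG over input and 0.415 for Fmr1 over IgG, as a description across genes of the same libraries. Among 1185 mRNAs of at most 500 bp, the length class of chic, the median log2 fold change of Fmr1 over input was −1.53, and among 2286 of 501 to 1000 bp, the class of Rac1, it was −0.66. Among 133 mRNAs over 8000 bp, the class of futsch, it was 1.15. The corresponding medians of IgG over input were −0.80, −0.46 and 0.94. Those of Fmr1 over IgG were −0.88, −0.26 and 0.18, so the gradient was weaker there and the longest class lay below the class of 4001 to 8000 bp (0.39).

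**Figure D4:**
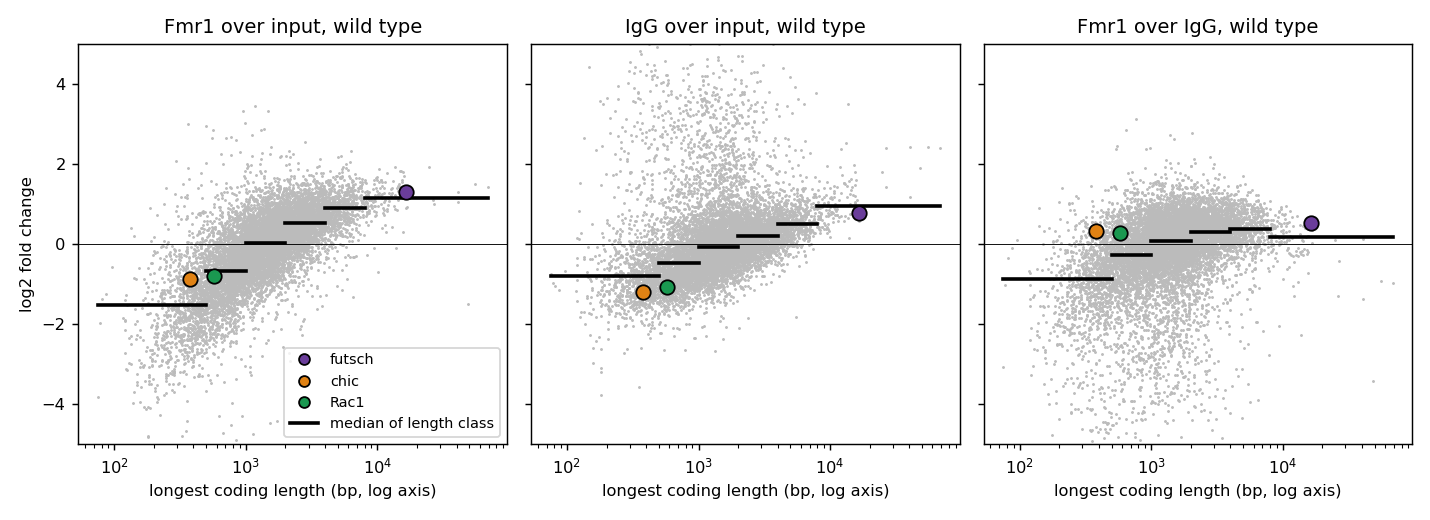
Log2 fold change (vertical axis) against longest coding length (horizontal log axis) of 10432 coding genes in the wild type, with futsch, chic and Rac1 as large points and black lines for the median of each length class. Between 16 and 32 genes per panel fall outside the axis limit of 5. Futsch lies near the line of its class in both comparisons with input, and chic and Rac1 lie below theirs for IgG over input and above theirs for Fmr1 over IgG.

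Against input, futsch stood higher among mRNAs of like input level than among those of like coding length, and for Fmr1 over IgG the order was the reverse. Of 164 coding mRNAs with an input level within 2-fold of it, 93.3% had a lower Fmr1-over-input value in the wild type (set median 0.12) and 94.5% in the mutant (0.31). Of 116 mRNAs with a coding length within 2-fold, 69% had a lower value in the wild type (set median 1.15) and 81.9% in the mutant (1.12). In that set of long mRNAs 90.5% were called higher in the wild type and 87.1% in the mutant. For IgG over input, 35.3% of the long mRNAs had a lower value than futsch in the wild type (set median 0.94) but 68.1% in the mutant (1.04). For Fmr1 over IgG 60.4% of the like-level and 82.8% of the like-length mRNAs had a lower value in the wild type (set medians 0.36 and 0.18). In the mutant the shares were 35.4% and 60.3%, and the second became 78.7% with a window of 1.5-fold.

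The position of chic depended on the yardstick. Of 370 mRNAs of like input level 24.3% had a lower Fmr1-over-input value in the wild type (set median 0.16), but of 2264 mRNAs of like coding length 62.3% did (set median −1.11), and 64.7% of these short mRNAs were called lower. For Fmr1 over IgG, chic was near the middle of the like-level set, with 48.9% below it (set median 0.34). Of the like-length set 87.5% lay below it (set median −0.60), and 4.28% of that set were called higher and 30.8% lower. In the mutant 35.4% and 81.9% lay below it. For IgG over input 17.9% of the like-length mRNAs were lower than chic in the wild type (set median −0.67) and 41.6% in the mutant (−0.60). Among 81 mRNAs like it in both measures, 79% had a lower Fmr1-over-IgG value and 76.5% a lower Fmr1-over-input value in the wild type.

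Rac1, like chic, stood higher among mRNAs of like coding length than among those of like input level. Of 2553 mRNAs of like input level 15.3% had a lower Fmr1-over-input value in the wild type (set median 0.19), and of 3881 of like coding length 44.8% did (set median −0.69), or 55.4% with the window of 1.5-fold. For Fmr1 over IgG 49.5% of the like-level set (set median 0.28) and 79.2% of the like-length set (set median −0.32) had a lower value. In the mutant these shares were 62.6% and 85.6%. For IgG over input 14.9% of the like-length set lay below Rac1 in the wild type (set median −0.47) and 16.7% in the mutant (−0.43). Among 690 mRNAs like it in both measures 69.4% had a lower Fmr1-over-IgG value in the wild type and 82.2% in the mutant. These shares are positions within the sets and carry no test.

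The mRNAs whose levels followed futsch most closely over the 27 libraries were also long. By Pearson's r of log2 CPM among 7665 coding genes they were Ufd4 (0.97), alpha-Spec (0.96), Rbcn-3A (0.94), mask (0.94) and beta-Spec (0.94), with coding lengths of 6924 to 12030 bp. The spectrins alpha-Spec and beta-Spec form the cytoskeletal lattice beneath the membrane. Of these 5, Ufd4 (0.42 ± 0.16, adjusted p = 0.044) and mask (0.46 ± 0.17, adjusted p = 0.0317) were called higher in Fmr1 than in IgG libraries of the wild type. Both calls were lost with RLE scaling (0.21 and 0.25), Ufd4 also without any 1 of 7 libraries (lowest 0.33) and mask without any 1 of 6 (lowest 0.37). Those nearest to chic were TpnC73F (0.95), eIF1A (0.93), Cpr49Ag (0.93), Chd64 (0.93) and eIF4E1 (0.92), with coding lengths of 402 to 777 bp, and none of them was called over IgG. TpnC73F, a muscle troponin C, is also among the muscle markers. Those nearest to Rac1 were crc (0.88), yps (0.86), Rab35 (0.86), Ran (0.85) and Rtnl1 (0.85), with coding lengths of 603 to 1821 bp. Of these crc (0.65 ± 0.17, adjusted p = 0.00436), a bZIP transcription factor, and yps (0.84 ± 0.20, adjusted p = 0.00165), a cold shock domain RNA-binding protein, were called higher over IgG in the wild type. Neither was called in the mutant (0.32 each, adjusted p = 0.249 and 0.317). Mutant minus wild type was −0.334 ± 0.255 for crc and −0.527 ± 0.292 for yps, and neither difference was called. Against input both were lower in the wild-type Fmr1 libraries (−0.827 and −1.229). All the correlations rest on the same libraries, inputs and pull-downs together, and carry no test.

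Of 3 relatives of Rac1, 2 also fell against input. In the wild type the GTPase mRNAs Rac2 (−1.08 ± 0.20, adjusted p = 6.86e-05) and Cdc42 (−0.93 ± 0.17, 6.8e-05) fell in Fmr1 libraries relative to input. Mtl had −0.31 ± 0.17 (adjusted p = 0.131). None of the 3 was called over IgG in the wild type, with values of −0.34 for Rac2, 0.29 for Mtl and −0.10 for Cdc42. In the mutant Rac2 fell against input by 0.64 and Cdc42 by 0.63 on the log2 scale. The Cdc42 call was lost without mutant input 7 (−0.50, adjusted p = 0.0612), and the Rac2 call without mutant input 1 or Fmr1 library 7 (adjusted p up to 0.0951). None was called over IgG in the mutant either. With RLE scaling Rac2 was called lower over IgG in the wild type (−0.56, adjusted p = 0.042), Mtl lower against input (−0.40, adjusted p = 0.046).

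Some other mRNAs of microtubule and actin proteins were called over IgG. In the list of 24 microtubule genes, 23 of them tested, 5 were called higher, 3 lower and 15 not in the wild type (median 0.09, against −0.03 over all tested genes). Over all tested genes 16.4% were called higher and 17% lower, so the microtubule counts are near the background. The motors Khc (1.07 ± 0.18, adjusted p = 3.19e-05) and unc-104 (0.77 ± 0.15, 0.000173) rose and the spectraplakin shot (−1.30 ± 0.22, 4.39e-05) fell, although shot was higher than input in the Fmr1 libraries (1.10, adjusted p = 0.000138). In the list of 24 actin genes 8 were called higher, 1 lower and 15 not (median 0.28). Among mRNAs of like input level to futsch, chic and Rac1, 36%, 35.7% and 31.2% were called higher. The actin list was not matched for level, so its count is not read as an excess. LIMK1 (0.88 ± 0.14, adjusted p = 1.68e-05), a kinase that inactivates cofilin, Arp2 (0.77 ± 0.13, 3.3e-05), a subunit of the branching complex, and the formin DAAM (1.03 ± 0.21, 0.000321) rose. The 6 genes named here kept their wild-type calls without any 1 library and with RLE scaling. They were picked for the smallest p in this comparison, so that is no separate support. Mutant calls were lost for unc-104 without Fmr1 library 2 or IgG library 7 and for Arp2 without Fmr1 library 2, and kept for the others. In the mutant the counts of higher and lower genes were 4 and 1 in the microtubule list and 6 and 2 in the actin list, where 10.8% and 9.61% of all tested genes were called. Without mutant Fmr1 library 2 they were 2 and 1, and 2 and 0, without mutant IgG library 7 they were 2 and 1, and 5 and 0, and in a fit of only the groups compared 2 and 1, and 0 and 0. With RLE scaling the wild-type counts became 4 and 4 for the microtubule list and 4 and 2 for the actin list. The medians were then −0.12 and 0.07, against −0.25 over all tested genes. A fit of only the groups compared gave wild-type counts of 4 and 1 in each list. Replicates 1, 5 and 7 alone gave 3 and 2, and 3 and 0, and replicates 2 and 3 alone 6 and 1, and 10 and 2.

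Against input in the wild type, where 23.2% of all tested genes were called higher and 25.6% lower, 11 microtubule genes were called higher and 6 lower, and 8 actin genes higher and 6 lower (medians 0.08 and −0.15, against −0.04 over all tested genes). The counts of lower genes are near the background, and that of the microtubule list was 3 without wild-type input 1 or Fmr1 library 3. The lists were not matched for coding length. Of all coding genes 0.844% were called higher among those up to 500 bp, 52.9% at 2001 to 4000 bp and 91% over 8000 bp. The counts of higher genes are therefore not read as an excess. Ank2 (1.29 ± 0.17, adjusted p = 8.1e-07), a giant axonal ankyrin, and the microtubule polymerase msps (1.02 ± 0.15, 2.22e-06) rose. The actin mRNA Act42A (−1.09 ± 0.16, 2.58e-06) and tsr (−1.71 ± 0.26, 4.15e-06), the fly cofilin, fell, and DAAM (1.28 ± 0.20, 7.52e-06) rose.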

How the data were processed

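RNA pulled down with anti-Fmr1 antibodies or with mouse IgG, and the input RNA of the same lysates, was sequenced in 27 libraries, 5 wild-type and 4 mutant replicates of each kind. The authors deposited raw counts per gene as 1 table. Per the submitters' processing notes, the tools were bcl2fastq 2.20 for the reads, Trim Galore for trimming and STAR for alignment. The genome build, the strand setting and any removal of duplicates by molecular barcode are not given in the sources used here. The table's 5 rows that name no gene held 23.8% to 74.7% of a library and were left out, and 0 columns went unused.

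Of 17807 genes, 17710 were matched to the Ensembl annotation of BDGP6.54, which gave positions and coding lengths. The filterByExpr function of edgeR 4.0.16 (R 4.3.3, minimum count 10, minimum total 15) kept 11469. A robust quasi-likelihood model of 6 groups was fitted to all 27 libraries after TMM scaling (biological coefficient of variation 0.281). P-values were adjusted over all tested genes by the Benjamini-Hochberg method, and an adjusted p under 0.05 counts as called. Log2 fold changes are the model's own coefficients, and levels are TMM-scaled counts per 1000000 (CPM) computed from the deposited counts. Without a statement that replicates came from separate collections, p-values measure the spread between these samples. Alternatives were RLE scaling, no filter, only the groups compared, replicates 2 and 3 or 1, 5 and 7 alone, each library left out, the replicate number as a block, and DESeq2 1.42.0.

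The lysate was divided per the labels' protocols, so libraries of 1 number and genotype may share it. Deviations from the group means of same-numbered libraries correlated at 0.175 to 0.473 between wild-type Fmr1 and input libraries. In the mutant the values were 0.181 to 0.318 for Fmr1 and IgG, 0.138 to 0.495 for Fmr1 and input, and 0.14 to 0.268 for IgG and input. These comparisons count as paired, as every correlation was over 0.1. The main fit has no term for the replicate number, so its errors, p-values and shares of called genes leave this pairing out. With the number as a block, called genes went from 5597 to 6172 for wild-type and from 5333 to 6055 for mutant Fmr1 over input. In the mutant they went from 2341 to 2734 for Fmr1 over IgG and from 1288 to 1746 for IgG over input. Across genotypes, same-numbered Fmr1 libraries correlated at 0.311 to 0.639 and inputs at 0.0214 to 0.354, and the block of the genotype differences was set within genotypes.

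The members and gene lists were chosen with earlier results of these data known. Beyond futsch, chic and Rac1, the rule named the 5 coding genes of most like pattern for each, the 3 called genes of smallest p in the microtubule and actin lists in both wild-type Fmr1 comparisons, and relatives of Rac1. Another gene list and 1 relative are not reported here.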

Additional observations from a re-analysis of the deposited data

Results flagged for a closer look

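In 18 groups of 4 or 5 libraries, each mRNA in each group, 3 held a library that lay far from the others for the group's spread, where chance flags about 1 in 20. The chic level of wild-type input replicate 1 was 1120 CPM, against 682 to 771 CPM in the other 4. The chic level of mutant input replicate 7 was 685 CPM, against 593 to 607 CPM in the other 3. The Rac1 level of wild-type IgG replicate 2 was 50 CPM from 20 reads, against 23.8 to 28.2 CPM in the other 4.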

How the results depend on the processing

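Of 486 recomputed values of futsch, chic and Rac1, 442 kept their direction and side of the threshold, 23 lost a call, 4 gained one and 17 reversed. With RLE scaling, mutant Fmr1 over IgG turned to −0.045 for futsch and −0.096 for chic (DESeq2 −0.045 and −0.093), 2 genes were called for the genotype difference over IgG (DESeq2 4), and chic in mutant IgG over input missed (−0.635). With no filter, Rac1 in mutant Fmr1 over input (−0.478) and chic in mutant IgG over input (−0.684) missed, and 0 genes were called for the genotype difference over input. Fits of only the groups compared called 1816 genes for Fmr1 over IgG in the wild type, 864 in the mutant, 2 for the genotype difference over input, 2152 for mutant IgG over input and 2264 for the inputs, and chic in mutant Fmr1 over IgG became −0.047. Replicates 1, 5 and 7 alone gave 2044, 324, 3705 (wild-type Fmr1 over input), 2146 (mutant Fmr1 over input), 0 (its genotype difference), 35 (mutant IgG over input) and 326 (inputs) genes, Rac1 at −0.158 for the genotype difference over IgG, chic at −0.413 in mutant Fmr1 over input, futsch at 0.496 in wild-type IgG over input, and 0.876, −0.507 and −0.76 for futsch, chic and Rac1 in mutant IgG over input. Replicates 2 and 3 alone gave 0, 2572 and 1124 genes for the genotype difference over input, mutant IgG over input and the inputs, chic at −0.107 and Rac1 at 0.685 in mutant Fmr1 over IgG, and chic at −0.158 for the genotype difference over input. Correlations of same-numbered libraries were not all over 0.1 for wild-type Fmr1 and IgG (−0.0128 to 0.326) or for inputs of the genotypes (0.0214 to 0.354). Whether those numbers mark pairs is open. The replicate block gave futsch 0.567 over IgG (adjusted p = 0.0134), in a fit with 4144 genes called there, and 1245 genes for the inputs. It gave 3 genes for the genotype difference over input and changed no other call of the 3 mRNAs. The cause of these changes was not tested.

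Leaving out 1 library at a time, Fmr1 over IgG in the wild type ranged over 0.382 to 0.743 for futsch and 0.151 to 0.451 for Rac1, and in the mutant over −0.079 to 0.466 for futsch and −0.207 to 0.213 for chic. The genotype difference over IgG ranged over −0.064 to 0.232 for Rac1, and that over input over −0.001 to 0.361 for chic. Mutant Fmr1 over input ranged over −0.895 to −0.501 for chic and −0.66 to −0.447 for Rac1, wild-type IgG over input over 0.554 to 0.921 for futsch, and mutant IgG over input over −0.768 to −0.556 for chic. Counts of called genes ranged over 1394 to 2609 for mutant Fmr1 over IgG, 0 to 2 for each genotype difference, 2150 to 3398 for wild-type and 507 to 1360 for mutant IgG over input, and 414 to 587 for the inputs. The IgG libraries, with as few as 5 Rac1 reads, limit the precision of the comparisons with IgG.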

Other observations

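Of all coding mRNAs, 13 matched futsch in both input level and coding length. For Fmr1 over input in the wild type, 12 of these 13 had a lower log2 fold change than futsch (median 0.96), the exception being poe at 1.71, and in the mutant all 13 had a lower one. The values in the wild type ran from −0.70 for apolpp, the precursor of fat body lipid carrier proteins, to 1.29 for Cdep and 1.71 for poe. For Fmr1 over IgG in the wild type 11 of the 13 were lower than futsch (median 0.01), with shot at −1.30 and Cdep at 0.71 near the ends of the range. The chromatin remodeller kis, with nearly the same coding length as futsch (16551 bp), had 1.14 over input and 0.50 over IgG. The set was formed by the windows of level and length and carries no test.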
